A study of Mus musculus with 2 samples.

Results

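The 8 genes followed here were listed as genes of sperm mitochondria. They were traced from spermatogonia to late spermatids in testes of Nsun7 knockout and WT mice: Spata18, Spata19, Gk2, Smcp, Armc12, Tfam, Gpd2 and Vdac3. They were chosen by name, with earlier results of these data known, as 8 of the 30052 gene symbols that both lists of genes gave together, and all 8 were in both lists. Their levels and knockout over WT ratios are therefore given as descriptions, with no test.

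The mitochondrial sheath is the helix of mitochondria wound around the flagellum in the sperm midpiece. It is built late in spermatid development, when mitochondria line up along the outer dense fibres, attach to each other and coil. Much of the RNA for sperm proteins is made before the chromatin is packed with transition proteins (Tnp1, Tnp2) and then protamines (Prm1, Prm2), and is stored for later translation, so the order in which RNAs rise and fall marks the stages.

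The study compared testes of adult Nsun7 knockout mice with testes of adult WT mice by droplet single-cell RNA sequencing of poly(A) RNA. There was 1 library of each genotype. The series title presents NSUN7 as a relative of RNA m5C methyltransferases without catalytic activity that is linked to assembly of the sperm flagellum. The labels give no strain, age in weeks, deleted exon or number of mice behind a library.

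The knockout library held 16837 barcodes and 210531446 counts, and the WT library 16376 barcodes and 220247156 counts. After removal of barcodes with few genes or many mitochondrial counts, 13869 knockout cells (median 12020 counts) and 15139 WT cells (median 8723 counts) were used. Barcode names are running numbers, and 2168 of them occurred in both libraries. Nsun7 itself was at 52.5 CPM (a gene's counts per 1000000 counts of the class) in late spermatocytes of the knockout library and 218 CPM in those of the WT library, which is 4.15-fold lower in the knockout. Whether the Nsun7 reads left in the knockout lie outside the deleted part cannot be told from these counts. With 1 library per genotype no p-value can be given, and every interval below is a 95% interval that covers counting error only.

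Cells were placed on the path by clusters and, among spermatids, by the share of a cell's counts in Prm1 plus Prm2. Named clusters gave spermatogonia, early spermatocytes, late spermatocytes and elongating spermatids, and each of these classes had all 10 of its markers at 10 CPM or more in both libraries. No cluster met the marker rule for round spermatids, so cells below 1% protamine stand for the earliest spermatids here (595 knockout and 1468 WT cells). Later spermatids were split at 5% and 15% protamine and by whether Tnp1 took 1% or more of the counts (called Tnp1-high) or less (Tnp1-low). Tnp1-low cells, with Prm2 at 92060 CPM in the knockout and 88268 CPM in WT in the 5 to 15% range, come after Tnp1-high cells. The split of the 5 to 15% range by Tnp1 was added after the data had been seen. The Tnp1-low range with 15% protamine or more is called the last range, but the order of the Tnp1-low ranges was not tested. These are ranges, not cell types: within 10% of the 15% limit, taken as a share of that limit, lay 1630 of 10001 knockout and 880 of 7196 WT spermatids.

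The 8 genes lie on 7 mouse chromosomes (GRCm38). Gk2, which has 1 exon, lies at chr5:97455142-97457021 on the minus strand and overlaps the lincRNA gene 4930467D21Rik on the opposite strand. Spata18 is at chr5:73651379-73679512 (plus), Spata19 at chr9:27396800-27401785 (plus), Smcp at chr3:92583867-92588997 (minus) and Armc12 at chr17:28530806-28539110 (plus). Tfam is at chr10:71225464-71238280 (minus), Gpd2 at chr2:57237635-57370719 (plus) and Vdac3 at chr8:22577075-22593813 (minus). A search of the transcripts of other genes at 95% identity over 100 bases found partners for Vdac3 only, the pseudogenes Gm7591 and Vdac3-ps1, neither of which has a row in the count tables. Gk2 and its somatic relative Gk share 80.6% identity over 1671 bases.

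Promoter windows, 250 bases before to 50 after the RefSeq start (GRCm38.p6), were matched for 6 of the 8 genes. Smcp and Spata18 are shown because their levels ran closest together along the path, Gk2 because it ran earliest, and Tfam because it rose latest among the genes of the middle group. Capitals mark a GC box (GGGCGG on either strand) or, in Spata18 only, also the core TGACG of the cyclic AMP response element (on either strand, lying within the full site TGACGTCA).

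Smcp, chr3:92589024-92589323, minus strand: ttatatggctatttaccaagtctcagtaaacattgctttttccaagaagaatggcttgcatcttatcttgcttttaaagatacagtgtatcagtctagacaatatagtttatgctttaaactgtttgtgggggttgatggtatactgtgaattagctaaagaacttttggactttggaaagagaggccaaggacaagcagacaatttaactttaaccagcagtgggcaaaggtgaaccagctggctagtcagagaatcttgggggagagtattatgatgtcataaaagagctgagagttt
Spata18, chr5:73651130-73651429, plus strand: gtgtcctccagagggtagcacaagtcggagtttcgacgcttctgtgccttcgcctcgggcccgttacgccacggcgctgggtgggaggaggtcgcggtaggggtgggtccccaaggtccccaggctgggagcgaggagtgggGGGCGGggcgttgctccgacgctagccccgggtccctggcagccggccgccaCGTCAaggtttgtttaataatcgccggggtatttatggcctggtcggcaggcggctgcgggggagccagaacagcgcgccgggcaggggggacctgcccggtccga
Gk2, chr5:97456974-97457273, minus strand: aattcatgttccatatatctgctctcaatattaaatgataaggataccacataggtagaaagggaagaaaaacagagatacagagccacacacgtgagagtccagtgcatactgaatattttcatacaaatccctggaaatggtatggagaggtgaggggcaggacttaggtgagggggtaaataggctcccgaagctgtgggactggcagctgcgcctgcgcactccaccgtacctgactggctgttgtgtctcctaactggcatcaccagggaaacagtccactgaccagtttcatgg
Tfam, chr10:71237995-71238294, minus strand: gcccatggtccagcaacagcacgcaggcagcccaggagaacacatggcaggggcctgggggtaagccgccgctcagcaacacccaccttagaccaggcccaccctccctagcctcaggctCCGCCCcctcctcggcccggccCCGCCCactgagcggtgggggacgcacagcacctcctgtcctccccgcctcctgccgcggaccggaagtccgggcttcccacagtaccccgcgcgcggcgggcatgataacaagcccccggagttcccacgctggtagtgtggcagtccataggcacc

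The promoters of the pair with like profiles differ in base composition. The Smcp window has 38.0% GC and 0 CpG, against 69.7% GC and 30 CpG in the Spata18 window, where the median over all mouse windows is 52.7% GC and 7 CpG. Tfam has 70.3% GC and 21 CpG, and Gk2 48.0% GC and 5 CpG. A GC box is in a window of Spata18, Tfam and Gpd2, and in 35.7% of all 32851 windows. The core TGACG is in Spata18 alone among the 6 and in 20.8% of all windows, and CCAAT is in Spata19 alone and in 37.4% of all windows. None of the 6 genes holds the full site TGACGTCA (1.79% of all windows), the NRF1 motif (0.971%) or TATAAA (13.6%), all searched on both strands.

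The members fell into 3 groups by the stage at which they were highest, and the grouping was the same in both libraries. Gk2 and Vdac3 were highest in late spermatocytes. Spata19, Armc12, Gpd2 and Tfam were highest in Tnp1-high spermatids of the 5 to 15% range. Spata18 and Smcp were highest in Tnp1-low spermatids, the last on the path. The plot of levels along the stages shows these 3 shapes.

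**Figure D1:**
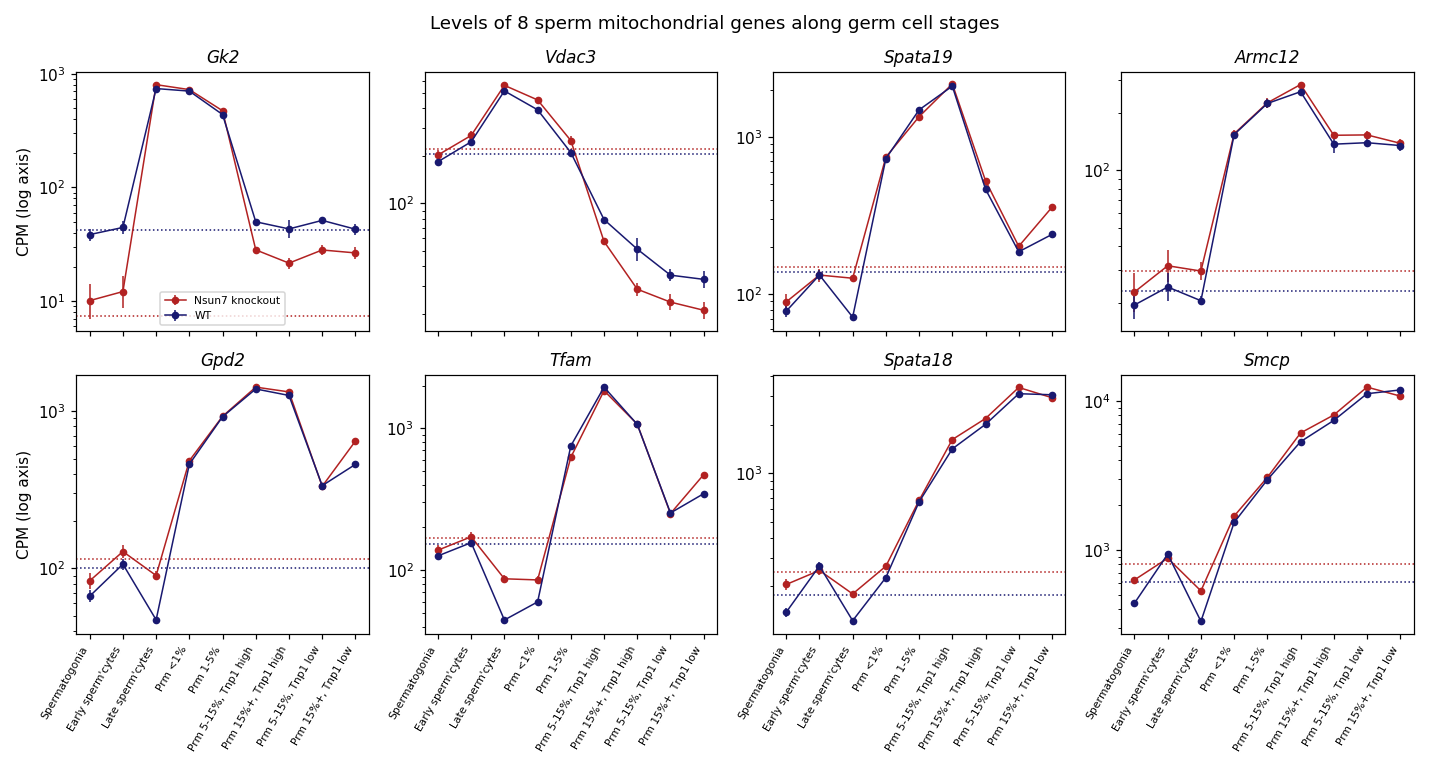
Levels of the 8 genes (CPM, log axis) in 9 stages from spermatogonia to late spermatids in the Nsun7 knockout library (red) and the WT library (dark blue), with exact Poisson intervals, and as dotted lines the level in Leydig-like cells of the same library. Prm is the share of counts in Prm1 plus Prm2, with the 1 to 5% range shown without cluster 8. Gk2 falls after late spermatocytes, Tfam peaks in the middle and Smcp is highest in Tnp1-low ranges in both libraries.

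Gk2 is a testis glycerol kinase at the outer mitochondrial membrane that mice need for an even sheath. It stood at 804 CPM in late spermatocytes of the knockout library (787 to 821) and 743 CPM in those of WT (737 to 749). It was still at 728 CPM in knockout and 706 CPM in WT spermatids below 1% protamine, and at 474 CPM and 439 CPM in the 1 to 5% range of the knockout and of WT. In Tnp1-high spermatids of the 5 to 15% range it was at 28.2 CPM in the knockout and 49.8 CPM in WT. Gk2 was 25.8 times as high below 1% protamine as in that range in the knockout, and 14.2 times in WT.

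Vdac3, an anion channel of the outer membrane that mouse sperm need for normal movement, had a like course with a higher level before meiosis. It was at 203 CPM in knockout and 184 CPM in WT spermatogonia, 560 CPM in knockout and 516 CPM in WT late spermatocytes, and 453 CPM in knockout and 392 CPM in WT spermatids below 1% protamine. Its lowest level was in the last range, Tnp1-low with 15% protamine or more, with an interval of 18.5 to 23.8 CPM in the knockout and 28.9 to 37.5 CPM in WT. Vdac3 is used by many tissues, and Leydig-like cells had 220 CPM in the knockout and 207 CPM in WT.

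Spata19, a mitochondrial protein that mouse sperm need for a regular sheath, was at 746 CPM in knockout and 730 CPM in WT spermatids below 1% protamine. It reached 2180 CPM in the knockout (2172 to 2189) and 2110 CPM in WT (2098 to 2123) in Tnp1-high spermatids of the 5 to 15% range. In the last range it was at 358 CPM in the knockout and 240 CPM in WT, so the RNA was 6.10 times as high in the Tnp1-high range as in the last one in the knockout, and 8.78 times in WT.

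Armc12, which in mice joins neighbouring mitochondria as they coil, kept the flattest course after meiosis. It was at 156 CPM in knockout and 154 CPM in WT spermatids below 1% protamine, at 283 CPM in knockout and 260 CPM in WT Tnp1-high spermatids of the 5 to 15% range, and at 139 CPM in the knockout and 135 CPM in WT in the last range. The peak was 2.04 times the level in the last range in the knockout and 1.92 times in WT.

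Gpd2, the glycerol 3-phosphate dehydrogenase of the inner membrane, was at 484 CPM in knockout and 460 CPM in WT spermatids below 1% protamine. It was at 1423 CPM in knockout and 1386 CPM in WT Tnp1-high spermatids of the 5 to 15% range. Unlike Spata19, it was still at 1327 CPM in the knockout and 1260 CPM in WT in Tnp1-high spermatids with 15% protamine or more, where Spata19 was at 528 CPM in the knockout and 466 CPM in WT.

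Tfam packages mitochondrial DNA and is needed for its transcription. Its RNA was at its lowest or next to lowest in the earliest spermatids, with 85.3 CPM in knockout (79.8 to 91.1) and 59.7 CPM in WT spermatids (56.8 to 62.7) below 1% protamine. In Tnp1-high spermatids of the 5 to 15% range it was at 1840 CPM in the knockout (1832 to 1848) and 1948 CPM in WT (1936 to 1961), a level 21.6 times as high in the knockout and 32.6 times as high in WT. Over the same step Gpd2 was 2.94 times as high in the knockout and 3.01 times in WT, and Spata19 2.92 times in the knockout and 2.89 times in WT. Counts are per gene and do not tell the 5 annotated Tfam transcripts apart.

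Spata18, known for its part in removing oxidized mitochondrial proteins, was at 266 CPM in knockout and 226 CPM in WT spermatids below 1% protamine, and at 1616 CPM in knockout and 1415 CPM in WT Tnp1-high spermatids of the 5 to 15% range. It reached 3395 CPM in knockout and 3106 CPM in WT Tnp1-low spermatids of the 5 to 15% range. In the last range it was at 2934 CPM in the knockout and 3060 CPM in WT, and the WT intervals of these 2 ranges overlap.

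Smcp codes for the cysteine-rich protein of the sperm mitochondrial capsule, and its RNA is known to be stored before translation. It was at 1685 CPM in knockout and 1527 CPM in WT spermatids below 1% protamine, and at 12364 CPM in knockout and 11167 CPM in WT Tnp1-low spermatids of the 5 to 15% range. In the last range the order of the libraries was turned round, with 10763 CPM in the knockout and 11834 CPM in WT. Cluster 8, a group of late spermatids with low counts (median 2608 in 780 knockout cells and 3615 in 677 WT cells), had the highest level, 27153 CPM in the knockout and 20901 CPM in WT, and Spata18 was at 6883 CPM and 5021 CPM there in the knockout and in WT. This cluster made up 15.9% of the knockout and 38.9% of the WT cells of the last range. The Smcp and Spata18 levels given for that range are not adjusted for this difference.

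Over the 21 clusters with 100 or more cells in a library, Spata18 and Smcp had the closest profiles of any pair of members, with a Pearson r of log2 levels of 0.99 in the knockout and 0.99 in WT. Spata19 and Gpd2 followed in WT, with 0.95 in the knockout and 0.96 in WT, and Armc12 and Gpd2 had 0.95 and 0.93 in the knockout and in WT. Vdac3 ran against Spata18, with -0.83 in the knockout and -0.80 in WT. The clusters of a library share its depth and free RNA, and these values are descriptions.

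Among 9086 candidate genes, those with profiles most like a member in WT were genes of the same stages. For Gk2 they were Trim69, Ccdc60 and the flagellar tektin Tekt3 (r 0.98 in the knockout and 0.99 in WT). For Smcp they were St6galnac2, Gsg1 and the spermatid kinase Tssk3 (1.00 in both), and for Spata18 Spem2, Tppp2 and Ubl4b (0.99 in both). Armc12 had Tssk2, Ccdc70 and Ttll10, and Spata19 had Fam229a, Cypt3 and the fibrous sheath protein gene Ropn1 (0.98 in the knockout and 0.99 in WT). For Tfam they were Cstl1, the transition protein gene Tnp2 (0.99 in the knockout and 0.98 in WT) and Tex37. Gpd2 had Galntl5, the actin capping gene Capza3 and Izumo2, and Vdac3 had Pfdn1, the mitochondrial import gene Timm8b (0.97 in both) and Polr1d.

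In single cells thinned to 1000 counts, members were only weakly tied to each other, and sizes of r above 0.2 occurred only in Tnp1-low ranges. There Smcp ran against Gpd2 in the last range, with -0.25 over 974 knockout cells and -0.36 over 841 WT cells. Smcp and Tfam had -0.32 in these WT cells, and Spata18 and Smcp had 0.21. These cells share a library and differ in position on the path.

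The comparison of genotypes asked at each stage which members differed by at least 1.5-fold between the libraries, by a ratio with 5 CPM added to both levels, among genes whose 2 levels averaged 10 CPM. Late spermatocytes had the most: 4 of 8 members were higher in the knockout and 0 lower, where 2.57% of 7975 genes were that much higher and 0.288% that much lower. The median log2 ratio was 0.60 over the members and -0.03 over all genes. The 4 were Spata19, Smcp, Tfam and Gpd2.

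Tfam was at 86.9 CPM in knockout (81.5 to 92.6) and 44.5 CPM in WT late spermatocytes (43.0 to 46.1), 1.95-fold higher (1.81 to 2.10). Gpd2 was at 90.1 CPM in the knockout and 47.1 CPM in WT, 1.91-fold higher (1.78 to 2.06). Spata19 was at 126 CPM in the knockout and 71.6 CPM in WT, 1.77-fold higher. Smcp was at 530 CPM in the knockout and 331 CPM in WT, 1.60-fold higher, but after subtraction of free RNA 175 CPM in the knockout and 124 CPM in WT were left, a log2 ratio of 0.48 that is not past 1.5-fold. None of these counting intervals overlap between the libraries.

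The members that are high in this stage were nearly level. Gk2 was 1.08-fold (1.06 to 1.11) and Vdac3 1.09-fold (1.06 to 1.12) higher in the knockout. All 4 higher members peak in spermatids and were below the level of Leydig-like cells, which make no sperm. Spata18 and Armc12 peak in spermatids too and did not pass 1.5-fold, with Spata18 at 179 CPM in the knockout and 122 CPM in WT (1.46-fold, 1.39 to 1.54) and Armc12 at 29.5 CPM in the knockout and 20.6 CPM in WT (1.43-fold, 1.27 to 1.62). In Leydig-like cells Tfam was at 169 CPM in the knockout and 154 CPM in WT, Gpd2 at 115 CPM and 101 CPM, Spata19 at 150 CPM and 138 CPM, and Smcp at 798 CPM and 607 CPM in the knockout and in WT. Tfam and Gpd2 are used by many tissues, so part of these levels can be the cells' own.

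RNA of spermatids moved the same way in late spermatocytes. The 10 elongating spermatid markers, none at 0, summed to 12593 CPM in the knockout and 6434 CPM in WT, and Tnp1 was at 2387 CPM in the knockout and 1141 CPM in WT. The median depth of these cells was 3839 counts in the knockout and 10335 in WT. In cells with 5000 or more counts, a limit set after the data had been seen, Tfam was at 75.2 CPM in the knockout and 42.3 CPM in WT, and the same 4 members were past 1.5-fold, where 1.82% of 7981 genes were that much higher. The limit did not even out depth, with medians of 10897 counts in the knockout and 18267.5 in WT. Of the Tfam level, free RNA as estimated from Leydig genes made up 71.3 of 86.9 CPM in the knockout and 38.0 of 44.5 CPM in WT. The part of free RNA and depth in the difference was not tested further.

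**Figure D2:**
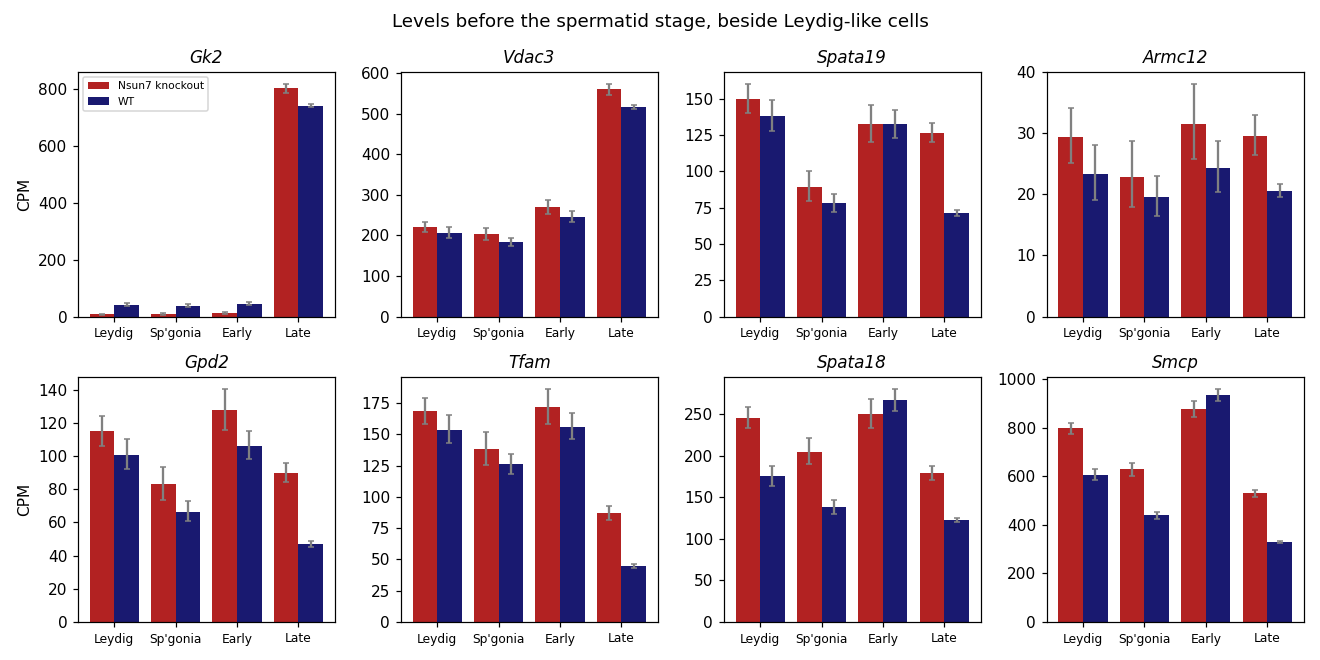
Levels (CPM, linear axes from 0) of the 8 genes in Leydig-like cells, spermatogonia, early spermatocytes and late spermatocytes of the Nsun7 knockout library (red) and the WT library (dark blue), with exact Poisson intervals. Gk2 and Vdac3 are highest in late spermatocytes, and Spata19, Gpd2, Tfam and Smcp in late spermatocytes are below it in both libraries.

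The late spermatocyte class held 3 clusters, and the ratio differed among them. Tfam was 2.15-fold higher in the knockout in cluster 6, 2.01-fold in cluster 10 and 1.67-fold in cluster 5. Gpd2 was 2.07-fold, 2.27-fold and 1.38-fold higher in clusters 6, 10 and 5. Tnp1 was 2.41-fold, 2.10-fold and 1.82-fold higher in the same order of clusters. Gk2 was 1.15-fold, 1.06-fold and 1.03-fold higher.

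With each cell thinned to 1000 counts, 12.2% of knockout (10.4 to 14.2) and 5.98% of WT late spermatocytes (5.23 to 6.80) held a Tfam count. Before thinning the shares were 42.0% in the knockout and 44.6% in WT. Of thinned Leydig-like cells (median 14101 counts in the knockout and 10473 in WT), 12.5% in the knockout and 7.81% in WT held one, so the share in late spermatocytes was no higher than in Leydig-like cells, whose Tfam can be their own. Gk2 was in 54.6% of knockout and 49.6% of WT late spermatocytes, against 1.39% of knockout and 3.90% of WT Leydig-like cells.

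Before late meiosis 1 member was past 1.5-fold. In early spermatocytes Gk2 was lower in the knockout, where 5.41% of 9343 genes were that much lower. It was at 12.1 CPM in the knockout (8.65 to 16.5) and 44.4 CPM in WT (39.1 to 50.2), 40 and 254 counts, and in spermatogonia at 10.1 CPM in the knockout and 38.4 CPM in WT. Leydig-like cells had 7.44 CPM in the knockout and 41.9 CPM in WT, the same order. After subtraction of the free RNA estimate 5.65 CPM in the knockout and 4.93 CPM in WT were left in early spermatocytes. The member median log2 ratio was 0.07 and that of all genes 0.00.

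In spermatids below 1% protamine 0 of 8 members were past 1.5-fold, against 0.319% of 8148 genes. The member median was 0.11 on the log2 scale and that of all genes -0.02. Gk2 was 1.03-fold (1.00 to 1.06), Spata19 1.02-fold (0.995 to 1.05) and Armc12 1.01-fold (0.953 to 1.07) in the knockout over WT. Smcp was 1.10-fold, Vdac3 1.15-fold and Spata18 1.18-fold higher.

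Tfam was the farthest apart there, 1.43-fold higher in the knockout (1.32 to 1.55). Without cluster 4, whose cells have low counts, it was at 80.1 CPM in the knockout and 48.8 CPM in WT, 1.64-fold higher, and passed 1.5-fold. Tnp1 was at 2499 CPM in the knockout and 1836 CPM in WT in this range, and the Tfam levels were 0.506 and 0.388 times those of Leydig-like cells in the knockout and in WT. The summed elongating spermatid markers were at 14770 CPM in the knockout and 10593 CPM in WT. After subtraction of free RNA 21.1 CPM of Tfam in the knockout and 18.5 CPM in WT were left, a log2 ratio of 0.15.

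**Figure D3:**
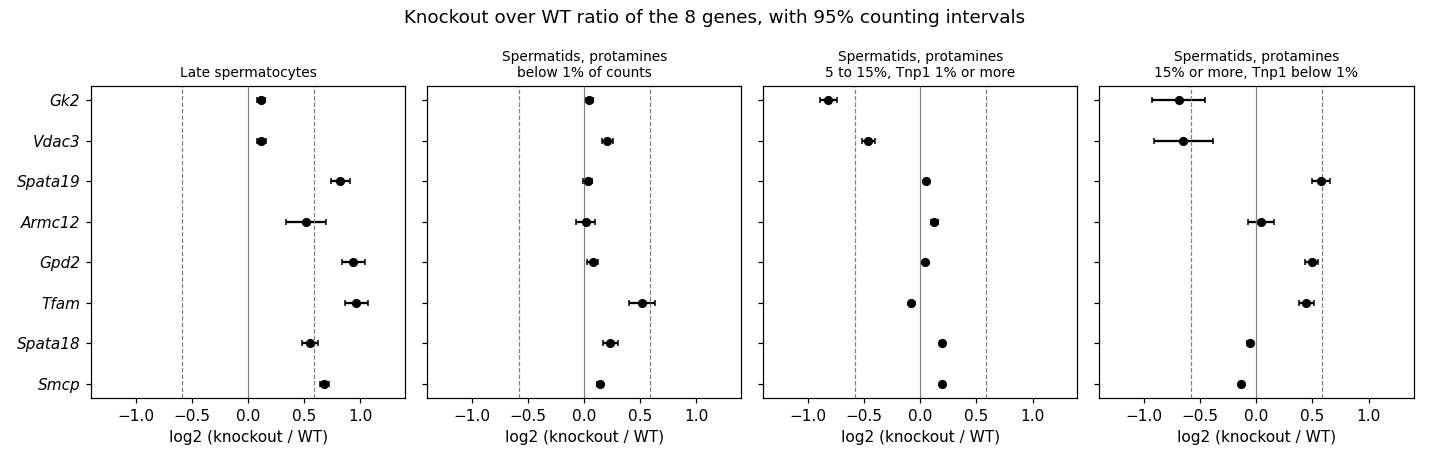
Ratio of knockout over WT levels (log2, no prior) of the 8 genes in 4 stages, with exact conditional 95% counting intervals and dashed lines at 1.5-fold. In late spermatocytes Tfam, Gpd2, Spata19 and Smcp lie past the right line, and below 1% protamine none do. In both later ranges Gk2 lies past the left line, and in the Tnp1-low one Vdac3 does too.

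In the 1 to 5% range, 2 members were past 1.5-fold, both higher in the knockout, where 1.97% of 7395 genes were that much higher. Spata18 was at 2288 CPM in the knockout and 1076 CPM in WT, and Smcp at 10017 CPM in the knockout and 5218 CPM in WT. Cluster 8, with its high Smcp and Spata18, made up 36.2% of the knockout and 21.7% of the WT cells of the range. Without it 0 members were past 1.5-fold, where 2.87% of 7641 genes were apart in either direction, with Spata18 at 680 CPM in the knockout and 666 CPM in WT and Smcp at 3064 CPM in the knockout and 2953 CPM in WT. Tfam was then at 624 CPM in the knockout and 751 CPM in WT, and Tnp1 at 17048 CPM in the knockout and 19433 CPM in WT.

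Tnp1-high spermatids of the 5 to 15% range, the stage at which Spata19, Armc12, Gpd2 and Tfam peak, had 5213 knockout and 2377 WT cells. Gk2 was past 1.5-fold, lower in the knockout, where 7.54% of 4948 genes were that much lower. The other members were within 1.5-fold. Spata19 was 1.03-fold, Gpd2 1.03-fold, Armc12 1.09-fold, Spata18 1.14-fold and Smcp 1.14-fold higher, and Tfam was at 0.944 of WT. Over the whole range, both Tnp1 groups together, Gk2 was again the member past 1.5-fold, where 6.90% of 4867 genes were that much lower. This call was lost with trimmed mean scaling (log2 -0.42), and after free RNA subtraction 21.4 CPM in the knockout and 20.9 CPM in WT were left (0.027).

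Gk2 was low in both libraries at this point. At 28.2 CPM in the knockout (27.2 to 29.2) and 49.8 CPM in WT (47.9 to 51.8) it was 3.79 times and 1.19 times the Leydig-like level in the knockout and in WT. Vdac3 was at 57.4 CPM in the knockout and 79.0 CPM in WT, below the Leydig-like level in both. In cluster 2, which both libraries share with 857 knockout and 521 WT cells, Gk2 was at 77.2 CPM in the knockout and 91.0 CPM in WT.

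The Tnp1-high range with 15% protamine or more had 825 knockout and 190 WT cells, and 2 members were past 1.5-fold, where 10.2% of 4158 genes were that far apart in either direction. They were Gk2 and Vdac3, both lower in the knockout. Gk2 was at 21.6 CPM in the knockout and 43.1 CPM in WT, and Vdac3 at 28.6 CPM in the knockout and 51.3 CPM in WT. Neither call held after free RNA subtraction (log2 -0.33 for Gk2 and -0.58 for Vdac3) or with trimmed mean scaling (-0.51 and -0.39). Different clusters filled this range, cluster 14 with 84.4% of the knockout cells and cluster 3 with 90.5% of the WT cells. Of the late members, Smcp was 1.09-fold and Spata18 1.09-fold higher in the knockout.

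In the last range, Tnp1-low with 15% protamine or more, Gk2 was past 1.5-fold, lower in the knockout, where 9.93% of 4029 genes were that much lower. It was at 26.5 CPM in the knockout and 42.9 CPM in WT. After free RNA subtraction 18.7 CPM in the knockout and 11.9 CPM in WT were left, so the direction turned (log2 0.49), and with trimmed mean scaling the call was lost (-0.31). Spata19, Gpd2 and Tfam did not pass 1.5-fold by the ratio with the prior. Spata19 was 1.49-fold (1.41 to 1.58), Gpd2 1.41-fold (1.35 to 1.47) and Tfam 1.36-fold (1.30 to 1.43) the WT level in the knockout. With trimmed mean scaling all 3 were past it (log2 0.86, 0.78 and 0.73). Smcp was at 0.909 of WT and Spata18 at 0.959.

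The clusters of this last range differed too. Cluster 23 held 78.7% of its knockout cells, and clusters 11 and 8 held 48.9% and 38.9% of its WT cells. Cluster 8, with its high Smcp and Spata18, held 15.9% of the knockout cells. Prm2 was at 89940 CPM in the knockout and 119385 CPM in WT, and Tnp1 at 4270 CPM in the knockout and 2992 CPM in WT. In Tnp1-low spermatids of the 5 to 15% range Gpd2 was at 333 CPM in the knockout and 336 CPM in WT, and Tfam at 250 CPM in the knockout and 253 CPM in WT. Gk2 was the member past 1.5-fold there, at 28.1 CPM in the knockout and 51.3 CPM in WT, where 9.47% of 4139 genes were that much lower. Gpd2 and Tfam were higher in the last range, Gpd2 at 646 CPM in the knockout and 459 CPM in WT. Tfam was at 471 CPM in the knockout and 346 CPM in WT in the last range. Vdac3 was lowest in the last range, so these levels do not settle the order of the Tnp1-low ranges.

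**Figure D4:**
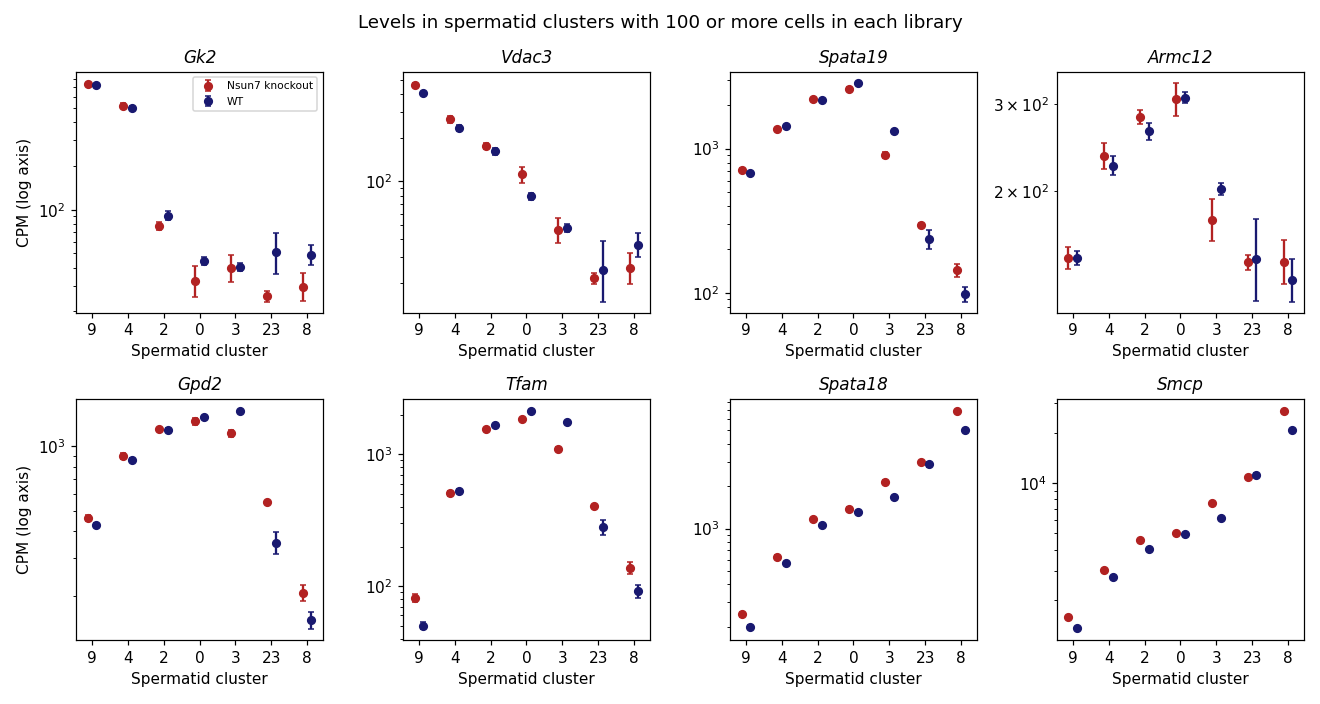
Levels (CPM, log axes) of the 8 genes in the 7 spermatid clusters with 100 or more cells in each library, knockout in red left of WT in dark blue, with exact Poisson intervals. Tfam and Spata19 are lower in the knockout in cluster 3, and Smcp and Spata18 are higher in the knockout in cluster 8.

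Most condensing spermatids of the libraries fell into different clusters, so values within clusters 0, 3 and 23 rest on few cells of one library. Clusters 2 and 8 were better shared, with 857 knockout and 521 WT cells in cluster 2 and 780 and 677 in cluster 8. Cluster 3 had 136 knockout and 1283 WT cells, and Tfam was at 1095 CPM in the knockout and 1766 CPM in WT there, with Spata19 at 901 CPM in the knockout and 1318 CPM in WT. Tnp1 was at 37977 CPM in the knockout and 73860 CPM in WT in the same cells, of which 32 knockout and 16 WT cells were called doublets. Within cluster 2, Tfam was at 1557 CPM in the knockout and 1662 CPM in WT, and Gpd2 at 1197 CPM in the knockout and 1188 CPM in WT.

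Over all elongating spermatids, 7901 knockout and 4606 WT cells, Gk2 was the member past 1.5-fold, lower in the knockout, where 7.41% of 4613 genes were that much lower. It was at 23.1 CPM in the knockout and 44.4 CPM in WT, 1.92-fold lower. After subtraction of free RNA 16.0 CPM in the knockout and 14.8 CPM in WT were left (log2 0.085), and with trimmed mean scaling the call was lost (-0.49). Smcp was at 7634 CPM in the knockout and 7799 CPM in WT, Spata18 at 2043 CPM in the knockout and 2074 CPM in WT, Gpd2 at 1261 CPM and 1068 CPM, and Tfam at 1511 CPM and 1389 CPM in the knockout and in WT. Scaling by the trimmed mean of ratios shifted this class by a log2 factor of -0.33, and relative to that factor Spata18 and Smcp, slightly below 0 as scaled to CPM, were above 0, so their direction depends on the scaling.

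Other genes of the sheath and midpiece, from a list chosen with earlier results known, were within 1.5-fold in late spermatocytes. Of 14 listed genes 12 were at 10 CPM or more, 0 were higher and 0 lower by 1.5-fold, and their median log2 ratio was -0.02. In this stage 2.57% of 7975 genes were that much higher and 0.288% that much lower, so 0 of 12 is near these shares. The same shares apply to the late spermatocyte counts of the lists below. Gpx4, the selenoprotein of the sperm capsule, was at 1704 CPM in the knockout and 1730 CPM in WT, Spata33, which anchors calcineurin to sperm mitochondria in mice, at 1216 CPM and 1271 CPM, and Gykl1, a glycerol kinase like Gk2, at 420 CPM and 403 CPM in the knockout and in WT. In elongating spermatids, where 7.41% of 4613 genes were that much lower, 0 of 12 were past 1.5-fold. Gpx4 was at 4092 CPM in the knockout and 4278 CPM in WT there. Tbc1d21, a partner of Armc12, was at 219 CPM in the knockout and 228 CPM in WT.

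Genes of mitochondrial DNA upkeep, the setting of Tfam, had 10 of 22 listed members measured in late spermatocytes and 0 past 1.5-fold. Slirp, an RNA-binding partner of Lrpprc, was at 325 CPM in the knockout and 359 CPM in WT, the unfoldase gene Clpx at 187 CPM in the knockout and 180 CPM in WT, and the polymerase gene Polg at 66.3 CPM in the knockout and 74.3 CPM in WT. In elongating spermatids 2 of 22 were measured, Clpx at 208 CPM in the knockout and 228 CPM in WT and Slirp at 18.3 CPM and 28.8 CPM in the knockout and in WT, neither past 1.5-fold. Over the 5 to 15% range Slirp was past it, at 19.3 CPM in the knockout and 31.4 CPM in WT, where 6.90% of 4867 genes were that much lower. Top1mt, the mitochondrial topoisomerase gene, was past it over the 1 to 5% range, at 6.84 CPM in the knockout and 13.7 CPM in WT, and without cluster 8 it was at 8.57 CPM in the knockout and 14.7 CPM in WT. Top1mt passed the minimum of 10 CPM through its WT level only. The share of all genes that much lower is not given for this range, so the call is not read as a result about the list.

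The outer membrane list, the setting of Vdac3, had 8 of 12 members measured in late spermatocytes and 0 past 1.5-fold, with Vdac2 at 1213 CPM in the knockout and 1246 CPM in WT. In elongating spermatids, where 7.41% of 4613 genes were that much lower, 4 were measured and 3 were lower in the knockout by 1.5-fold. Vdac2 was at 23.3 CPM in the knockout and 62.9 CPM in WT, the import receptor gene Tomm22 at 21.7 CPM and 43.7 CPM, and Tomm7 at 9.74 CPM and 29.4 CPM in the knockout and in WT. Leydig-like cells had Vdac2 at 171 CPM in the knockout and 231 CPM in WT, and the part of free RNA in these low levels was not tested. The same 3 were lower by 1.5-fold in each range from 5% protamine on, with Vdac2 in the last range at 16.2 CPM in the knockout and 54.0 CPM in WT. In elongating spermatids and in both ranges of 15% or more Tomm7 passed the minimum of 10 CPM through its WT level only. Vdac2, Tomm22 and Tomm70a were above it in both libraries. The count leaves out the members below the minimum. Log2 ratios were -1.26 for Vdac2, -1.22 for Tomm7 and -0.86 for Tomm22. Relative to the trimmed mean factor of -0.33 in this class Tomm22 was within 1.5-fold, and Vdac2 and Tomm7 stayed past it.

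Of the 13 protein genes in mitochondrial DNA 11 were measured, and 4 were lower by 1.5-fold in elongating spermatids of the knockout, where 7.41% of 4613 genes were that much lower. The 4 were mt-Atp8, mt-Nd3, mt-Co1 and mt-Atp6, subunits of the ATP synthase and the respiratory chain, with mt-Co1 at 1086 CPM in the knockout and 1641 CPM in WT and mt-Atp6 at 497 CPM in the knockout and 765 CPM in WT. Their log2 ratios, in that order of genes, were -0.88, -0.60, -0.59 and -0.62. Relative to the trimmed mean factor of -0.33 in this class none of the 4 was past 1.5-fold. mt-Atp8 was lower in Leydig-like cells too, at 390 CPM in the knockout and 573 CPM in WT. Over the 5 to 15% range mt-Nd1, at 326 CPM in the knockout and 506 CPM in WT, and mt-Nd2, at 106 CPM in the knockout and 164 CPM in WT, were past it as well. Their log2 ratios were -0.63 and -0.60, against a trimmed mean factor of -0.32 in that range, where 6.90% of 4867 genes were that much lower. Tnp1-low spermatids of that range had mt-Co1 at 1082 CPM in the knockout and 1067 CPM in WT and mt-Co2 at 470 CPM in the knockout and 415 CPM in WT. In the last range mt-Atp8 alone of the 11 was past it, at 20.3 CPM in the knockout and 33.7 CPM in WT, and the median log2 ratio of the 11 was 0.03. In late spermatocytes 0 of 11 were past 1.5-fold, and mt-Co1 was at 5815 CPM in the knockout and 5659 CPM in WT. The mitochondrial share of counts in elongating spermatids had a median of 0.143% in the knockout and 0.227% in WT. Of the fission, fusion and mitophagy list 12 of 18 members were measured in late spermatocytes and 8 in elongating spermatids, with 0 past 1.5-fold in either. Mff, a receptor for fission, was at 154 CPM in the knockout and 179 CPM in WT elongating spermatids.

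For glycerol phosphate metabolism, the setting of Gk2 and Gpd2, 3 of 10 listed genes were measured in late spermatocytes and 2 in elongating spermatids, and 0 were past 1.5-fold. Aqp7, a glycerol channel, was at 151 CPM in knockout and 124 CPM in WT elongating spermatids, and Gykl1 at 160 CPM and 180 CPM in the knockout and in WT.

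Early spermatocytes and the last spermatid stages gave few further listed genes past 1.5-fold. In early spermatocytes 5.41% of 9343 genes were at least 1.5-fold lower in the knockout. Ppp3r2, the sperm calcineurin subunit, was at 28.1 CPM in the knockout and 77.5 CPM in WT there. It was the only sheath gene of 14 past 1.5-fold, and Leydig-like cells had 26.1 CPM in the knockout and 73.5 CPM in WT. The mitochondrial gene mt-Atp8 was at 526 CPM in the knockout and 800.3 CPM in WT early spermatocytes, and at 390 CPM and 573 CPM in Leydig-like cells of the knockout and of WT. Sept4, a septin of the ring that ends the midpiece, was at 43.8 CPM in the knockout and 22.8 CPM in WT in the last range. The share of all genes that much higher is not given for the last range, so this call is not read as a result about the sheath genes. Ppp3cc, another calcineurin subunit, was at 16.7 CPM in the knockout and 28.2 CPM in WT in the Tnp1-high range of 15% or more, and Sqstm1, a mitophagy adaptor, at 9.73 CPM and 17.8 CPM there in the knockout and in WT. In that range 10.2% of 4158 genes were that far apart in either direction. Sqstm1 passed the minimum of 10 CPM through its WT level only.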

How the data were processed

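Single-cell poly(A) libraries of dissociated testis, 1 per genotype, were made with the DNBelab C system per the labels' protocols. Per the file headers, PISA 0.12 made the deposited matrices, whose values are raw counts for each gene in each barcode. The submitters' processing notes name GRCm38, and neither the aligner nor the annotation is given in the sources used here. No barcode had under 1001 counts. The deposited barcode and feature lists give names only, and the genotype came from the labels.

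The members and gene lists were chosen with earlier results of these data known. Genes were joined by symbol (97.5% in GENCODE M21). Cells needed 200 genes and a mitochondrial share no higher than 20%. Doublets were called with Scrublet in scanpy 1.11.5 (622 knockout cells, 4.49%, and 600 WT cells, 3.96%) and kept. Counts per 10000 were log transformed, and 3000 variable genes, without Nsun7, the members and mitochondrial genes, gave 40 components, 20 neighbours and 24 Leiden clusters at resolution 1 (igraph 0.11.9). Clusters took the class with the highest marker score, with at least 3 markers detected. They stayed unnamed above 50% doublets, with more leading genes of another class among their 10, with low counts, or, for round spermatids, with Tnp1 or Prm2 at 10000 CPM or more. The doublet limit and the Tnp1 or Prm2 limit were chosen with the clusters in view. Of the clusters scored as round spermatids, cluster 9 had the late spermatocyte marker Spag6 among its leading genes, and clusters 2 and 4 passed the Tnp1 or Prm2 limit. The planned round spermatid comparison was therefore made below 1% protamine.

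Counts were summed per library and stage and divided by the stage total (CPM), with exact Poisson, conditional binomial and Clopper-Pearson intervals. Genes at a mean of 10 CPM were counted as apart at a ratio of 1.5 after adding 5 CPM. Genes named are the members, Nsun7, 3 nearest profiles per member, and, from 6 lists, members past 1.5-fold and up to 4 of the most abundant; other genes are named only beside a result. Free RNA was estimated from 4 Leydig genes. Calculations used Python 3.11.15, numpy 2.4.6, scipy 1.17.1, pandas 2.3.3, scikit-learn 1.9.0, matplotlib 3.10.9 and BLAST 2.17.0, and the counting was tested on simulated data.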

Additional observations from a re-analysis of the deposited data

Results flagged for a closer look

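The barcodes left out by the filter on genes and mitochondrial counts, 2968 in the knockout library and 1237 in WT with a median mitochondrial share of 39.1% and 29.6%, belong to no comparison above, and 6 members were at least 1.5-fold higher there in the knockout, where 4.47% of 9514 genes were that much higher. Spata18 was at 362 CPM in the knockout and 201 CPM in WT (1.80-fold), Spata19 at 239 and 132 CPM (1.81-fold) and Smcp at 1479 and 774 CPM (1.91-fold) in the knockout and in WT. Armc12 was 1.63-fold, Tfam 1.91-fold and Gpd2 1.91-fold higher, with Tfam at 222 CPM in the knockout and 116 CPM in WT. Tnp1 was 2.01-fold and Prm2 1.95-fold higher in the same barcodes, while Gk2 was at 49.4 CPM in the knockout and 78.2 CPM in WT and Vdac3 at 352 and 365 CPM in the knockout and in WT. The part of spermatid RNA outside cells in these values was not tested.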

How the results depend on the processing

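No paired analysis was possible because each genotype has 1 library. Counts of members past 1.5-fold are out of 8 unless fewer were measured. In late spermatocytes 4 members were past it under every alternative run except free RNA subtraction, which left 3, without Smcp. In early spermatocytes 1 became 4 with a stricter cell filter (500 genes, 10% mitochondrial), 7 with each library clustered on its own, 0 after free RNA subtraction and 0 at a minimum of 50 CPM. In elongating spermatids and in the 5 to 15% range 1 became 0 with the same cluster mix, trimmed mean scaling, free RNA subtraction and a minimum of 50 CPM. In the Tnp1-high range of 15% or more 2 became 1 with the same cluster mix and 0 with trimmed mean scaling, free RNA subtraction and 50 CPM. In the last range 1 became 3 with trimmed mean scaling, 0 after free RNA subtraction, 0 at 50 CPM and 2 with a prior of 0.5 CPM. Below 1% protamine 0 became 1 without cluster 4, and in the 1 to 5% range 2 became 0 with the same cluster mix, without cluster 8 and without clusters 4 and 8. At 50 CPM fewer members were measured, among them not Gk2 where it is low. The other causes were not tested.

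After free RNA subtraction the log2 ratio of Gk2 turned to 0.10 in early spermatocytes, 0.085 in elongating spermatids, 0.027 in the 5 to 15% range and 0.49 in the last range. Without clusters 4 and 8 Spata18 turned to -0.13 and Smcp to -0.040 in the 1 to 5% range, and with the same cluster mix Vdac3 turned to 0.18 in the Tnp1-high range of 15% or more. Of 624 single ratios under alternatives, 386 moved by less than their counting interval, and 63 changed sign, of which these 7 had been past 1.5-fold. The rest of the 63 were smaller ratios. Trimmed mean factors of -0.33 in elongating spermatids and -0.35 and -0.29 in the ranges of 15% or more, Tnp1-high and Tnp1-low, shift all genes alike, and with them the median of all genes went from below 0 to above it. Alternatives without clusters and the 5000 count limit were chosen after seeing the data. Depth limits the low levels most, with 40 Gk2 counts in knockout early spermatocytes.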

Other observations

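Sertoli-like cells, which take up parts of spermatids in the testis, held RNA of the members that peak in spermatids at levels above those in Leydig-like cells. Smcp was at 5408 CPM in knockout and 2899 CPM in WT Sertoli-like cells, which is 6.78 and 4.78 times the Leydig-like level in the knockout and in WT. Spata18 was at 1491 CPM in the knockout and 798 CPM in WT, Spata19 at 733 CPM and 428 CPM, Tfam at 773 CPM and 508 CPM, Gpd2 at 691 CPM and 455 CPM, and Armc12 at 136 CPM and 81.1 CPM in the knockout and in WT. Gk2 was at 77.7 CPM in the knockout and 114 CPM in WT, and Vdac3 at 273 CPM and 360 CPM in the knockout and in WT. The summed elongating spermatid markers were at 144198 CPM in the knockout and 83388 CPM in WT in these cells, against 21584 CPM and 16660 CPM in Leydig-like cells of the knockout and of WT. High sums were not particular to Sertoli-like cells. Macrophages had 108226 CPM in the knockout and 70400 CPM in WT, and interstitial stroma 19965 CPM and 13093 CPM. The source of this RNA was not tested.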
